A study of Mus musculus with 6 samples.

Results

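Fatty acid oxidation and lipid storage were followed through 37 genes named by their role. The roles were fatty acid uptake, activation, β-oxidation, control by peroxisome proliferator-activated receptors (PPARs), and the making and breakdown of lipid droplets. All 37 of 37 were among the 18057 genes of the deposited table, and all 37 passed the filter on low counts. The cells were group 2 innate lymphoid cells (ILC2s), tissue-resident lymphocytes that secrete type 2 cytokines. They were sorted from mouse lung after 3 intranasal doses of 1 µg IL-33 and then kept in culture for 24 h in the presence of IL-2 and of IL-7 (10 ng/mL of either cytokine), a treatment shared by both groups. Piezo1 KO cells carried the genotype Il7rcrePiezo1flx, in which a Cre recombinase under Il7r acts on a floxed allele of Piezo1, the gene of a mechanically gated cation channel. The libraries titled WT carried Il7rcre. Each group had 3 libraries, and nothing in the labels ties them to different animals. The p-values therefore reflect the variation among these libraries, which may be technical. Il7r is active in many lymphoid cells, so the driver is not specific to ILC2s, and the ages of the mice were not given in the sources used here.

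Fatty acids enter cells through carriers and binding proteins, are joined to coenzyme A, and then either cross into the mitochondrion on carnitine and are cut down in repeated cycles of β-oxidation, or are esterified into triglyceride and kept in lipid droplets. PPARs are nuclear receptors that bind fatty acids and control many genes of both routes. In the lung, activated ILC2s are known to take up external lipid, to store part of it in droplets and to draw on it, and PPARγ is known as a regulator of ILC2 function.

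Of the genes for fatty acid oxidation and lipid storage, 1 of triglyceride synthesis and 1 of activation rose. Dgat2, an enzyme of the last step of triglyceride synthesis, rose 1.53-fold in Piezo1 KO, and Acsl3, an acyl-CoA synthetase found on the endoplasmic reticulum and on lipid droplets, rose 1.44-fold. These 2 of 37 members passed an adjusted p of 0.05 (quasi-likelihood F-test of edgeR, Benjamini-Hochberg correction across the 14149 genes tested), 0 fell and 35 did not pass. Over all genes tested 1.51% passed, 1.00% higher and 0.509% lower. Of the 20 oxidation genes, from the carnitine shuttle to thiolysis, 0 passed (0 higher and 3 lower at an unadjusted p under 0.05, and 0 called by DESeq2 or limma-voom). At an unadjusted p under 0.05 there were 5 members higher and 5 lower, beside 6.30% and 6.91% of all genes tested.

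The groups did not overlap for 5 members that were higher and 8 that were lower in Piezo1 KO, that is 13.5% and 21.6% of the 37, beside 10.1% and 10.5% of all genes tested. The members, and the lists of further genes below, were chosen with earlier results of these data known. Such shares are therefore descriptive only. The median log2 fold change of the members was 0.01, with 20 positive and 17 negative, and that of all genes tested was 0.02, with 7498 positive and 6651 negative. RNA was measured in bulk, so fewer cells of a type and less RNA per cell cannot be told apart. Log2 fold changes are Piezo1 KO over WT, with standard errors (SE), and levels are CPM, the share of a library's counts with library sizes scaled by the trimmed mean of M values (TMM).

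Depth was 23549849 to 29733378 estimated counts in Piezo1 KO and 13059046 to 33459904 in WT. Piezo1 itself was at 150.0, 109 and 122 CPM in Piezo1 KO and 247, 278 and 160.0 CPM in WT, without overlap (log2 fold change −0.85 ± 0.21; edgeR adjusted p = 0.112), and counts over the whole gene do not measure the floxed part alone. The cell type was checked with 15 ILC2 markers, all measured, whose summed level was 13954 to 14898 CPM in Piezo1 KO and 12153 to 13102 CPM in WT. Of them, Il17rb rose and Il7r and Icos fell (adjusted p = 0.0136, 0.00722 and 0.0168, edgeR). The largest parts of the sum were Il5 and Il2ra, at 5159 and 4318 CPM in Piezo1 KO and 4038 and 3469 CPM in WT. The groups did not overlap for 6 higher and 5 lower ILC2 markers, beside 10.1% and 10.5% of all genes tested. Gata3, Rora and Kit were among the lower ones but did not pass (edgeR adjusted p = 0.0612, 0.320 and 0.0577). Markers of macrophages, which take up and store lipid, were measured for 9 of 14 genes and summed to 6.59, 13.2 and 10.2 CPM in Piezo1 KO and 9.61, 11.3 and 21.2 CPM in WT. Markers of alveolar type 2 epithelium (4 of 9 measured) summed to 36.6 to 40.7 CPM in Piezo1 KO and 32.2 to 35.1 CPM in WT. Pdgfrb, a fibroblast and mural cell marker, and Ighm, a B cell marker, rose to 6.30 ± 1.44 and 64.9 ± 10.7 CPM in Piezo1 KO, against 1.10 ± 0.443 and 18.6 ± 4.40 CPM in WT (SD, n = 3 each). Summed levels were lower in Piezo1 KO without overlap for T cell markers (6 of 8 measured; 119.9 to 152 CPM in Piezo1 KO and 154 to 196 CPM in WT) and NK cell markers (2 of 5; 40.2 to 59.8 CPM in Piezo1 KO and 62.8 to 85.8 CPM in WT). The same held for granulocyte and mast cell markers (5 of 9; 4.27 to 5.35 CPM in Piezo1 KO and 8.63 to 13.2 CPM in WT). The 2 NK markers went opposite ways. Gzma was at 46.1 CPM in Piezo1 KO and 69.9 CPM in WT without overlap, and Prf1 at 3.75 and 2.26 CPM with overlap. Of the T cell markers, Trbc2, Trbc1 and Cd3g made up most of the sum, at 84.9, 28.2 and 21.7 CPM in Piezo1 KO and 106, 31.5 and 27.1 CPM in WT. Trbc2 was lower without overlap, as was Cd3e, at 1.20 CPM in Piezo1 KO and 2.83 CPM in WT. Trbc1 and Cd3g overlapped. Cd3d and Trac, both at low levels, were higher in Piezo1 KO, at 0.528 and 0.626 CPM, against 0.180 and 0.603 CPM in WT. Summed levels were higher in Piezo1 KO without overlap for B cell markers (3 of 5; 80.2 to 104 CPM in Piezo1 KO and 34.4 to 40.3 CPM in WT) and fibroblast markers (2 of 8; 5.47 to 8.03 CPM in Piezo1 KO and 0.675 to 1.56 CPM in WT). The fibroblast sum was nearly all Pdgfrb, since Col1a1 was at 0.214 CPM in Piezo1 KO and 0.0697 CPM in WT. Of the 6 endothelial markers, 0 were among the genes of the deposited table, in which the lowest sum of a gene over all libraries was 10 counts. Cma1, a mast cell protease, fell to 1.31 ± 0.420 CPM, against 5.45 ± 1.59 CPM in WT (SD, n = 3 each). The part of these cell types in the results for the members was not tested.

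**Figure D1:**
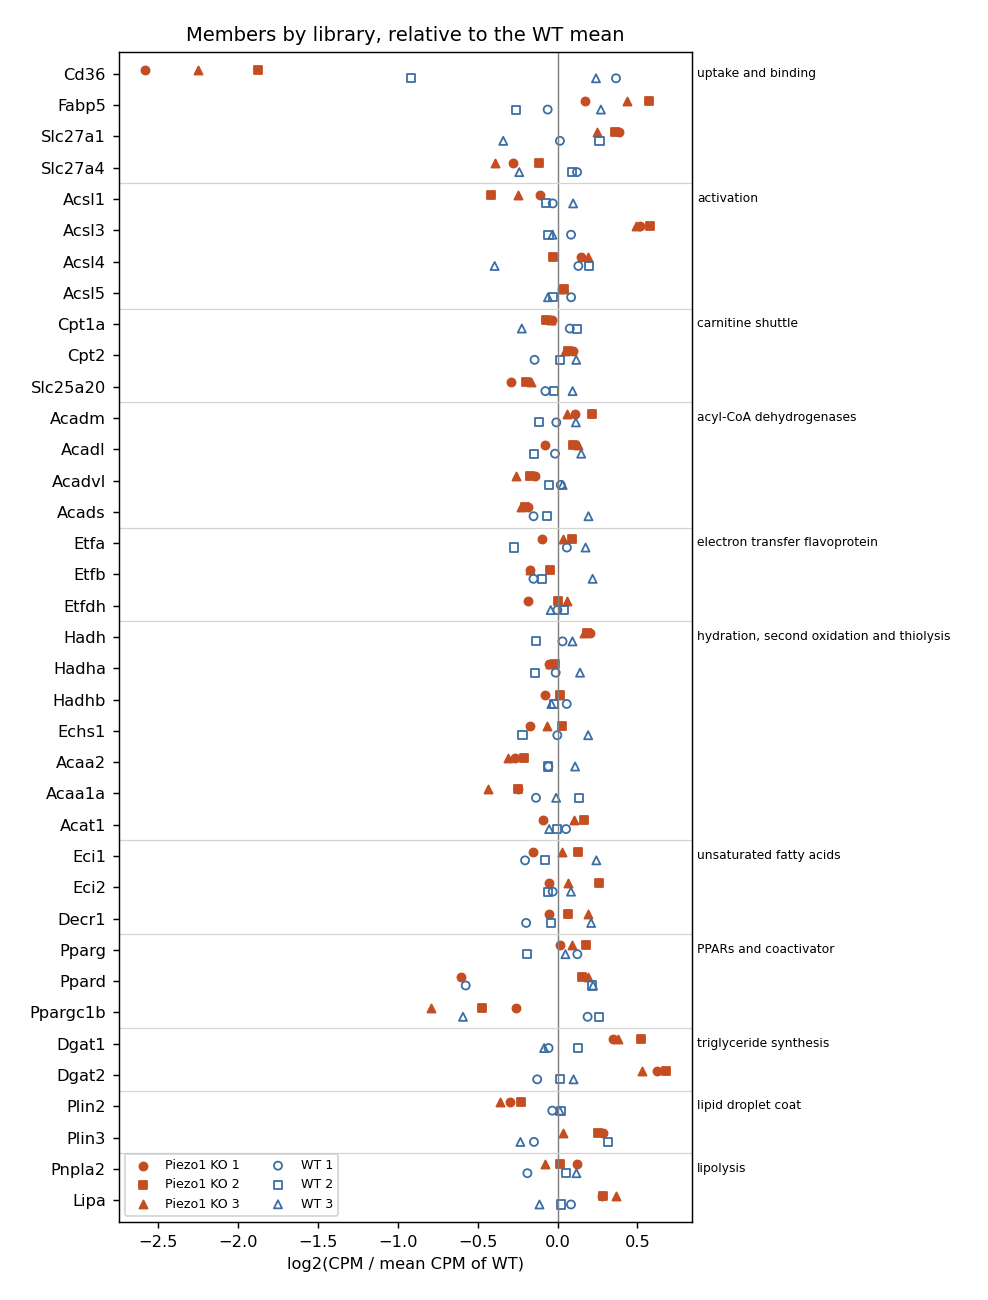
Level of each of the 37 members in each library on the x axis, as log2 of CPM over the mean CPM of WT, with filled symbols for the 3 Piezo1 KO libraries and open symbols for the 3 WT libraries; members run down the page in order of their role. The Piezo1 KO libraries lie to the right of all WT libraries for Acsl3, Hadh, Dgat1, Dgat2 and Lipa, and to the left for 8 members including Cd36, Plin2, Acaa2 and Acaa1a.

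Levels were first set against each other per length, as CPM per kb of exon annotated in GENCODE release M21. This length joins the exons of all annotated transcripts of a gene, so the order of the genes depends on the annotation. Etfb, a subunit of the electron transfer flavoprotein, and Plin2, the lipid droplet coat protein perilipin 2, were the highest members, at 112 ± 5.89 and 94.6 ± 4.33 CPM per kb in Piezo1 KO and 122 ± 17.6 and 116 ± 2.29 CPM per kb in WT (SD, n = 3 each). Among all genes tested they stood at percentiles 96.8 and 96.3 by this measure. Ppard and Cd36 were the lowest, at 0.116 and 0.0612 CPM per kb in Piezo1 KO and 0.120 and 0.283 CPM per kb in WT. The genes next below Etfb and Plin2 belonged to different roles, since Etfa, Acsl5 and Acadl were at 79.2, 77.2 and 73.6 CPM per kb in Piezo1 KO and 78.7, 75.4 and 71.0 CPM per kb in WT, and these neighbours did not differ beyond their SDs. The first place of Etfb rests on its short exon length of 1164 bases. By CPM it was at 130 in Piezo1 KO and 143 in WT. Acsl5 was at 375 and 367 CPM and Plin2 at 332 and 408 CPM. Gm45233, annotated on the same strand, shares 617 of the exon bases of Etfb and was not among the genes of the deposited table. How reads were assigned there is uncertain.

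**Figure D2:**
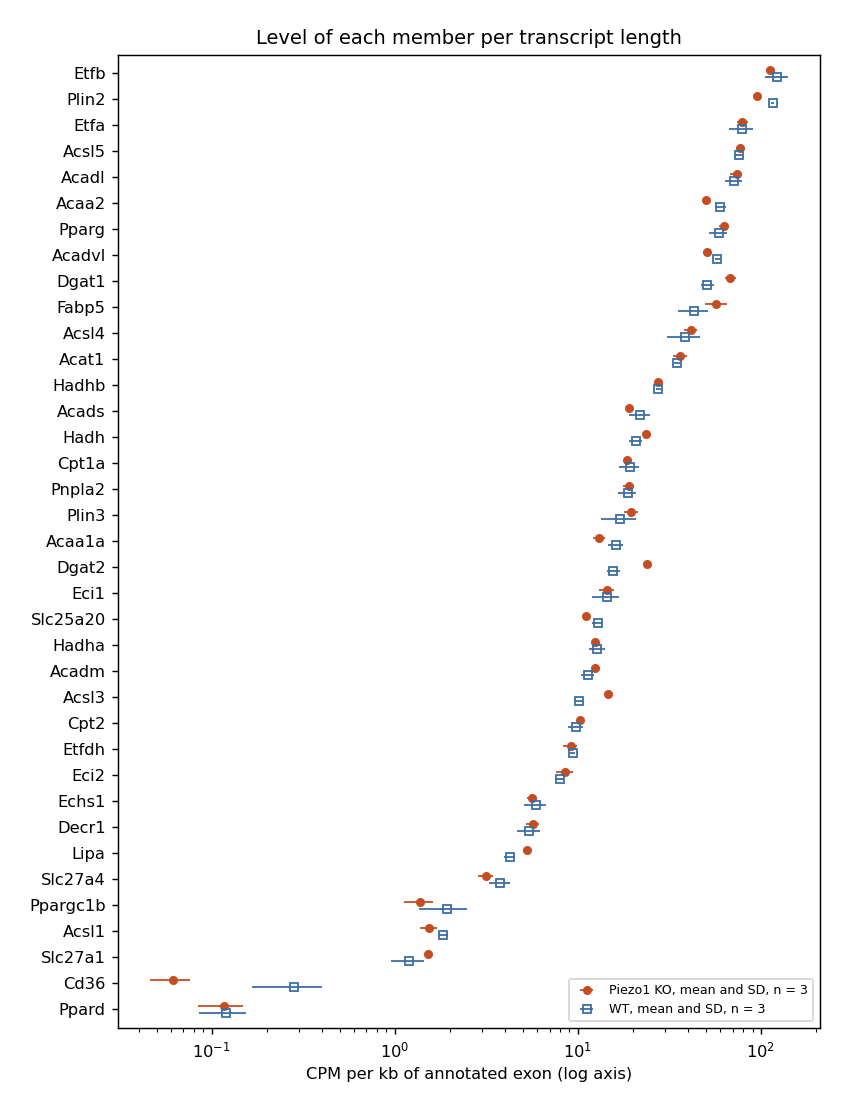
Level of each member on the x axis as CPM per kb of annotated exon on a log axis, with circles for the mean of 3 Piezo1 KO libraries and squares for the mean of 3 WT libraries, bars giving the SD, and members ordered by their WT level. Etfb and Plin2 are highest and Cd36 and Ppard lowest. The distance between the groups is small beside the full range over the genes, and is widest for Cd36 (0.0612 in Piezo1 KO and 0.283 in WT).

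The spread between libraries differed by group. The median coefficient of variation of the members was 6.61% in Piezo1 KO and 9.88% in WT, beside 9.88% and 16.2% over all genes tested. In 4191 genes of like level it was 6.72% in Piezo1 KO and 11.4% in WT, close to the members. WT replicate 3, the library of lowest depth, was the highest of the 6 libraries for 12 of the 20 oxidation genes, and WT replicate 2, the deepest, was the lowest for 7 of them. Among all members these counts were 14 and 10. The same counts were not made over all genes tested, so a trait of the oxidation genes cannot be read from them.

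Among 4 genes of uptake and binding, none passed the edgeR test and none the DESeq2 test. At an unadjusted p under 0.05 in edgeR, 1 was higher and 1 lower, beside 6.30% and 6.91% of all genes tested. Cd36, the scavenger receptor and fatty acid translocase, had 0.169, 0.276 and 0.214 CPM in Piezo1 KO and 1.31, 0.538 and 1.20 CPM in WT. All 3 Piezo1 KO libraries were below all WT libraries, but the values rest on 4, 8 and 5 counts in Piezo1 KO and 26, 18 and 16 counts in WT. The log2 fold change was −2.14 ± 0.55 (adjusted p = 0.131, edgeR). It passed narrowly in limma-voom with sample quality weights (0.0496) and without WT replicate 2 (0.0449), and ranged up to 0.440 without Piezo1 KO replicate 2. The macrophage gene Csf1r, which encodes the receptor of the growth factor CSF1, was also low, at 0, 0.380 and 0.128 CPM in Piezo1 KO and 1.06, 1.05 and 1.12 CPM in WT. Among other macrophage genes, Lyz2 had 0.380, 1.35 and 0.342 CPM in Piezo1 KO and 1.06, 1.55 and 6.75 CPM in WT, and Cd68 had 3.09, 4.18 and 3.89 CPM in Piezo1 KO and 1.91, 2.84 and 2.55 CPM in WT. Csf1r and Cd68 lay on opposite sides without overlap and Lyz2 overlapped, and their part in the Cd36 value was not tested.

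Fabp5, a cytosolic fatty acid binding protein, was the most abundant uptake gene, at 173, 229 and 209 CPM in Piezo1 KO and 148, 129 and 186 CPM in WT. The groups overlapped, since WT replicate 3 lay above Piezo1 KO replicate 1 (log2 fold change 0.41 ± 0.16, adjusted p = 0.317, edgeR). The fatty acid transport proteins Slc27a1 and Slc27a4 had log2 fold changes of 0.32 ± 0.20 and −0.26 ± 0.15, with overlap in both.

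Activation to acyl-CoA is shared among the Acsl enzymes, which differ in their place in the cell. Acsl3 (chromosome 1, 78657825 to 78707743 in mm10, plus strand) had 62.8, 65.6 and 61.9 CPM in Piezo1 KO and 46.6, 42.3 and 43.0 CPM in WT. The 3 libraries of each group lay close together and far from the other group. The rise was 0.53 ± 0.09 on the log2 scale (adjusted p = 0.0312, edgeR), with 574 to 1900 counts per library. It passed in 8 of 14 alternative fits. The 6 that missed were the fit with a replicate block and those without Piezo1 KO replicates 1, 2 and 3 (0.144, 0.221 and 0.145) and without WT replicates 1 and 2 (0.117 and 0.0529), while the log2 fold change was 0.48 to 0.57 over all alternatives. Utp14b, a gene annotated on the same strand, shares 244 of the 4357 exon bases of Acsl3, so how reads were divided there is uncertain. Utp14b itself had 13.6, 12.6 and 15.5 CPM in Piezo1 KO and 8.60, 9.20 and 8.77 CPM in WT (log2 fold change 0.65 ± 0.15, adjusted p = 0.0899, edgeR).

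The other synthetases did not pass. Acsl5, an enzyme of the outer mitochondrial membrane and endoplasmic reticulum, was the most abundant, at 374, 377 and 375 CPM in Piezo1 KO and 389, 359 and 352 CPM in WT. Its log2 fold change was 0.03 ± 0.08, and the Piezo1 KO libraries lay inside the WT range. Acsl4, which prefers arachidonic acid, had 230.1, 204 and 238 CPM in Piezo1 KO and 228, 238 and 158 CPM in WT, and the groups overlapped. Acsl1, a synthetase prominent in fat, heart and liver, had 17.9, 14.4 and 16.2 CPM in Piezo1 KO and 18.9, 18.3 and 20.6 CPM in WT, without overlap (log2 fold change −0.25 ± 0.13, adjusted p = 0.477, edgeR).

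Per length, the share of Acsl3 among the 4 Acsl members was 10.6%, 11.4% and 10.4% in Piezo1 KO and 7.95%, 7.50% and 8.70% in WT, a difference of 2.76 percentage points without overlap. The exact two-sided permutation test gave p = 0.1, the smallest that 3 libraries against 3 allow, or 0.25 adjusted over the 5 family shares computed. The share of Acsl5 was 57.3% ± 1.34 in Piezo1 KO and 60.1% ± 3.38 in WT, and that of Acsl4 was 30.7% ± 1.82 in Piezo1 KO and 30.4% ± 4.19 in WT (SD, n = 3 each; exact permutation p = 0.2 and 0.8). The share of Acsl1 was 1.14% ± 0.106 in Piezo1 KO and 1.47% ± 0.225 in WT, without overlap (exact permutation p = 0.1, adjusted 0.25). The joined exon length was 10483 bases for Acsl1 and 4357, 5405 and 4864 bases for Acsl3, Acsl4 and Acsl5. The size of each share therefore depends on the annotation.

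The promoters of Acsl3, which rose, and of Acsl5, the most abundant Acsl gene, which did not pass, are shown to set the sequences of these family members side by side. They run from 250 bases before to 50 bases after the start in RefSeq (GRCm38.p6), with matches to a GC box (GGGCGG) and a CCAAT box (CCAAT) on either strand in capitals.
Acsl3 (chr1:78657575-78657874, plus strand): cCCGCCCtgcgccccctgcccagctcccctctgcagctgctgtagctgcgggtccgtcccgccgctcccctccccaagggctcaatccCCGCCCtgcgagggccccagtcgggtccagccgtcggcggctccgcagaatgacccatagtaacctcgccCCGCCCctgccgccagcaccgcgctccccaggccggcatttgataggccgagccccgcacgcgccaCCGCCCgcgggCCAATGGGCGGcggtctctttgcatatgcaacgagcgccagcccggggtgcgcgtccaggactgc
Acsl5 (chr19:55253119-55253418, plus strand): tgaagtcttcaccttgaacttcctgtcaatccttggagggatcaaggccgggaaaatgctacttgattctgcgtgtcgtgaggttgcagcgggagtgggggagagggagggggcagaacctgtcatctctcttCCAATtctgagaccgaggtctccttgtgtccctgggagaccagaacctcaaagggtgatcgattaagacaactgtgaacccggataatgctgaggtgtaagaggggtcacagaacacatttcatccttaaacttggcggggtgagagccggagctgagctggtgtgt
The Acsl3 promoter held 5 GC boxes and 1 CCAAT box, directly beside one of them, and its GC content was 74.0%. The Acsl5 promoter held 1 CCAAT box and 0 GC boxes, at a GC content of 53.0%. Promoters were matched for 30 of 37 members, 35 sequences in all, with 3 each for Pparg and Slc27a1 and 2 for Acsl1. Dgat2, which rose, and Dgat1 were among the 7 without a match and do not enter these counts. A GC box occurred in 28 of these 35 and in 35.7% of all 32851 promoters, a CCAAT box in 19 of 35 and in 37.4%, and an E-box (CACGTG) in 2 of 35 and in 7.15%. The PPAR response element, searched on both strands as 2 copies of AGGTCA with 1 base between them and more loosely as 2 copies of AGGNCA, matched 0 of the 35, beside 0.0396% and 0.381% of all promoters. The sterol regulatory element, searched as TCACNCCAC, matched 1 of 35, at Acsl1, beside 1.24% of all. These windows are short, and a match or its absence says nothing on binding.

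The carnitine shuttle carries acyl groups into mitochondria. Cpt1a, the carnitine palmitoyltransferase that limits the rate of entry, had 143, 139 and 142 CPM in Piezo1 KO and 154, 159 and 125 CPM in WT. The Piezo1 KO libraries lay within the WT range, and the log2 fold change was −0.05 ± 0.11 (edgeR adjusted p = 0.898). Slc25a20, the carnitine-acylcarnitine translocase, had 50.7, 54.1 and 55.3 CPM in Piezo1 KO and 58.8, 61.0 and 66.2 CPM in WT. These groups did not overlap, but the log2 fold change of −0.22 ± 0.09 did not pass (adjusted p = 0.373, edgeR). Cpt2, the inner transferase, was at 24.5 ± 0.447 CPM in Piezo1 KO and 23.3 ± 2.10 CPM in WT (SD, n = 3 each).

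The acyl-CoA dehydrogenases take the first hydrogens from chains of different length. Acadvl, for very long chains, had 140.2, 138 and 129 CPM in Piezo1 KO and 157, 149 and 158 CPM in WT, without overlap (log2 fold change −0.19 ± 0.08, adjusted p = 0.390, edgeR). Acads, for short chains, was likewise lower without overlap, at 43.7, 43.2 and 42.4 CPM in Piezo1 KO and 44.8, 47.5 and 56.8 CPM in WT (−0.20 ± 0.11, adjusted p = 0.499, edgeR), though the nearest libraries of the groups were close. Acadm, for medium chains, and Acadl, for long chains, had log2 fold changes of 0.13 ± 0.10 and 0.05 ± 0.11 with overlap. The exons of Acadvl share 1151 of 2686 bases with Dvl2 on the opposite strand, and the sources used here do not say whether counting used strand. Dvl2 was at 27.2 ± 2.91 CPM in Piezo1 KO and 24.0 ± 0.594 CPM in WT (SD, n = 3 each), well below Acadvl.

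Electrons from these enzymes pass through the electron transfer flavoprotein to ubiquinone. Its subunit genes Etfa and Etfb and the oxidoreductase gene Etfdh had log2 fold changes of 0.01 ± 0.13, −0.13 ± 0.12 and −0.04 ± 0.10, each with overlap. Etfa was at 145 ± 9.61 CPM in Piezo1 KO and 144 ± 22.3 CPM in WT (SD, n = 3 each).

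Of 7 genes of hydration, the next oxidation and thiolysis, 2 thiolase genes had the most negative values. Acaa2, the mitochondrial thiolase of medium and long chains, had 75.4, 78.5 and 73.2 CPM in Piezo1 KO and 87.3, 87.2 and 98.0 CPM in WT. Acaa1a, the peroxisomal thiolase, had 60.1, 60.3 and 52.8 CPM in Piezo1 KO and 65.1, 78.3 and 71.1 CPM in WT. Neither overlapped between groups, and neither passed (log2 fold change −0.26 ± 0.09 for Acaa2 and −0.31 ± 0.11 for Acaa1a; edgeR adjusted p = 0.256 for each). Acaa1b, a close copy of Acaa1a that may share reads with it, was at 0.881 ± 0.420 CPM in Piezo1 KO and 0.594 ± 0.263 CPM in WT (SD, n = 3 each).

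Hadh, the short-chain hydroxyacyl-CoA dehydrogenase, went the other way, at 119, 118 and 116 CPM in Piezo1 KO and 106, 94.1 and 110.2 CPM in WT, without overlap (log2 fold change 0.19 ± 0.09, adjusted p = 0.442, edgeR). Hadha and Hadhb encode the subunits of the trifunctional protein, with log2 fold changes of −0.04 ± 0.10 and −0.02 ± 0.08. Echs1 (enoyl-CoA hydratase) and Acat1 (the thiolase that acts on acetoacetyl-CoA) had −0.06 ± 0.12 and 0.06 ± 0.10. The auxiliary enzymes for unsaturated chains, Eci1, Eci2 and Decr1, had log2 fold changes of 0.01 to 0.10, with overlap in each.

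As a route, the 20 oxidation genes had log2 fold changes between −0.31 and 0.19, with SE between 0.08 and 0.14. Their median was −0.03, with 9 positive and 11 negative, beside the 0.02 of all genes tested. At an unadjusted p under 0.05, 0 were higher and 3 lower (Slc25a20, Acaa2 and Acaa1a), beside 6.30% higher and 6.91% lower of all genes tested. The groups did not overlap for 1 higher and 5 lower genes, 5% and 25% of the 20, beside 10.1% and 10.5% of all genes tested. Their summed level was 1699, 1819 and 1764 CPM in Piezo1 KO and 1800, 1739 and 1903 CPM in WT, and these ranges overlapped. The median of the 20 became 0.01 without Piezo1 KO replicate 1 and 0.04 without WT replicate 3, so its sign rests on single libraries.

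Pparg and Ppard encode receptors, and their levels lay far apart. Pparg, which encodes PPARγ, had 175, 196 and 185 CPM in Piezo1 KO and 189, 152 and 179 CPM in WT, with overlap (log2 fold change 0.10 ± 0.11, adjusted p = 0.762, edgeR). Ppard, which encodes the widely expressed PPARδ, had only 0.592, 1.00 and 1.03 CPM in Piezo1 KO and 0.604, 1.05 and 1.05 CPM in WT, from 12 to 35 counts per library, with overlap (log2 fold change −0.04 ± 0.43, adjusted p = 0.983, edgeR). Ppargc1b, a coactivator of mitochondrial genes, had 6.42, 5.53 and 4.44 CPM in Piezo1 KO and 8.75, 9.20 and 5.10 CPM in WT. WT replicate 3 lay within the Piezo1 KO range, and the log2 fold change of −0.50 ± 0.27 did not pass (adjusted p = 0.490, edgeR).

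Triglyceride synthesis ends with an acyl transfer to diacylglycerol by the unrelated enzymes Dgat1 and Dgat2. Dgat2 (chromosome 7, 99153658 to 99182719, minus strand) had 74.4, 77.1 and 69.5 CPM in Piezo1 KO and 44.2, 48.9 and 51.7 CPM in WT. All Piezo1 KO libraries were above all WT libraries, and the rise was 0.61 ± 0.10 on the log2 scale (adjusted p = 0.0270, edgeR), with 690 to 2232 counts per library. It passed in 9 of 14 alternative fits. The 5 that missed were the fit with a replicate block and those without Piezo1 KO replicates 1, 2 and 3 (0.129, 0.182 and 0.0983) and without WT replicate 1 (0.134), while the log2 fold change was 0.55 to 0.67 over all alternatives.

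Dgat1 (chromosome 15, 76502015 to 76511953, minus strand) was the more abundant enzyme, at 198, 224 and 203 CPM in Piezo1 KO and 149.8, 171 and 147 CPM in WT. The groups did not overlap, and the log2 fold change was 0.42 ± 0.10, which did not pass (adjusted p = 0.105, edgeR). Its adjusted p was 0.00584 by DESeq2, 0.0235 by limma-voom and 0.0467 without WT replicate 2, and ranged up to 0.472 without Piezo1 KO replicate 2. Per length, Dgat1 exceeded Dgat2 in both groups, at 68.1 ± 4.51 and 23.9 ± 1.25 CPM per kb in Piezo1 KO and 51.0 ± 4.21 and 15.7 ± 1.24 CPM per kb in WT (SD, n = 3 each). The share of Dgat2 in the pair was 27.2%, 25.5% and 25.4% in Piezo1 KO and 22.6%, 22.1% and 25.9% in WT, with overlap (exact permutation p = 0.3, adjusted 0.375). The summed level of both genes was 272, 301 and 272 CPM in Piezo1 KO and 194, 219 and 199 CPM in WT, without overlap.

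**Figure D3:**
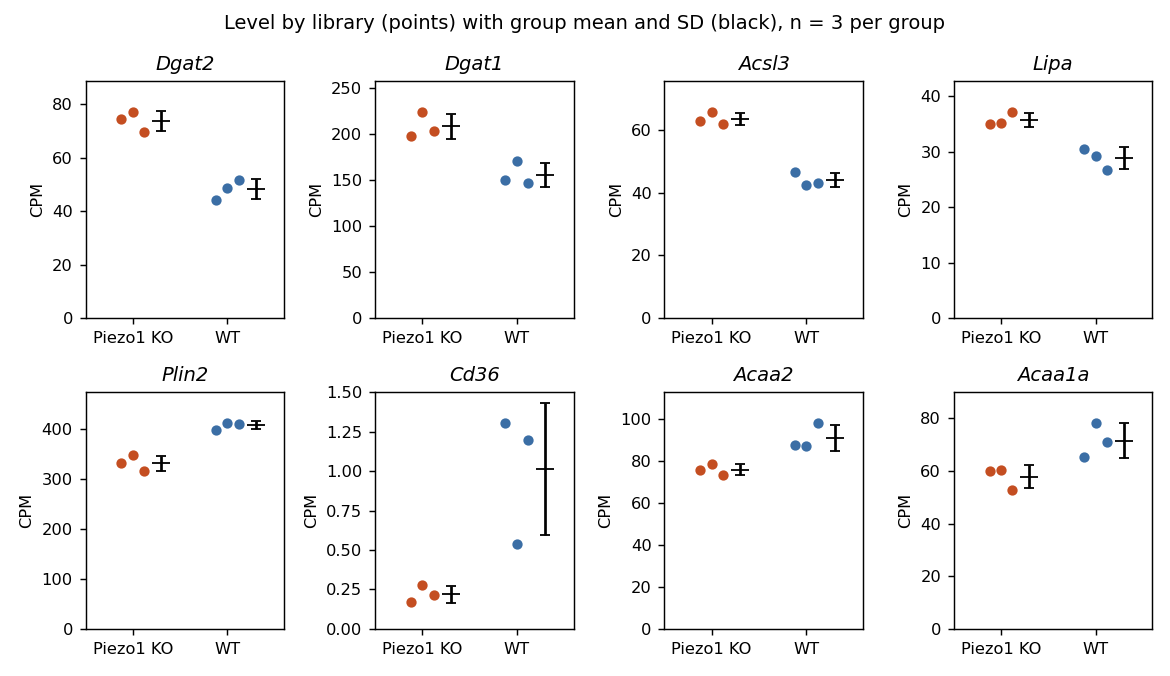
CPM of 8 members by library, with Piezo1 KO at the left and WT at the right of each panel, axes from 0, points for single libraries and black bars for the mean and SD of 3. The groups do not overlap in any of the 8 panels; Dgat2, Dgat1, Acsl3 and Lipa (top) are higher and Plin2, Cd36, Acaa2 and Acaa1a (bottom) lower in Piezo1 KO, and only Dgat2 and Acsl3 passed the test.

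The droplet coat is represented by 2 perilipins, of which 0 passed. At an unadjusted p under 0.05, 0 were higher and 1 lower, beside 6.30% and 6.91% of all genes tested. Plin2 (chromosome 4, 86648386 to 86670060, minus strand) had 332, 348 and 317 CPM in Piezo1 KO and 399, 414 and 412 CPM in WT, without overlap. Its log2 fold change of −0.30 ± 0.08 did not pass (adjusted p = 0.153, edgeR), and among the alternatives it passed in DESeq2 alone (0.0207), with values up to 0.545 without Piezo1 KO replicate 3. Plin3, perilipin 3, had 78.8, 77.0 and 66.3 CPM in Piezo1 KO and 58.4, 80.6 and 55.0 CPM in WT, with overlap.

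On the side of breakdown, Lipa, the lysosomal acid lipase, had 35.0, 35.1 and 37.2 CPM in Piezo1 KO and 30.6, 29.3 and 26.7 CPM in WT. The groups did not overlap, and the log2 fold change of 0.31 ± 0.10 did not pass in any fit (adjusted p = 0.232 with all libraries, edgeR, and 0.148 to 0.629 in the alternatives). Pnpla2, the adipose triglyceride lipase of the cytosol, was at 57.3 ± 4.02 CPM in Piezo1 KO and 56.5 ± 6.16 CPM in WT (SD, n = 3 each), a log2 fold change of 0.02 ± 0.11.

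The calls for 5 members were followed through every fit. Leaving out 1 Piezo1 KO library or WT replicate 1 left no member past the threshold, while the whole table then held 33 to 53 called genes, against 214 with all 6 libraries. Without WT replicate 2, the members called were Dgat1 and Dgat2 (higher) and Cd36 (lower), and without WT replicate 3 they were Acsl3 and Dgat2, as with all libraries.

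**Figure D4:**
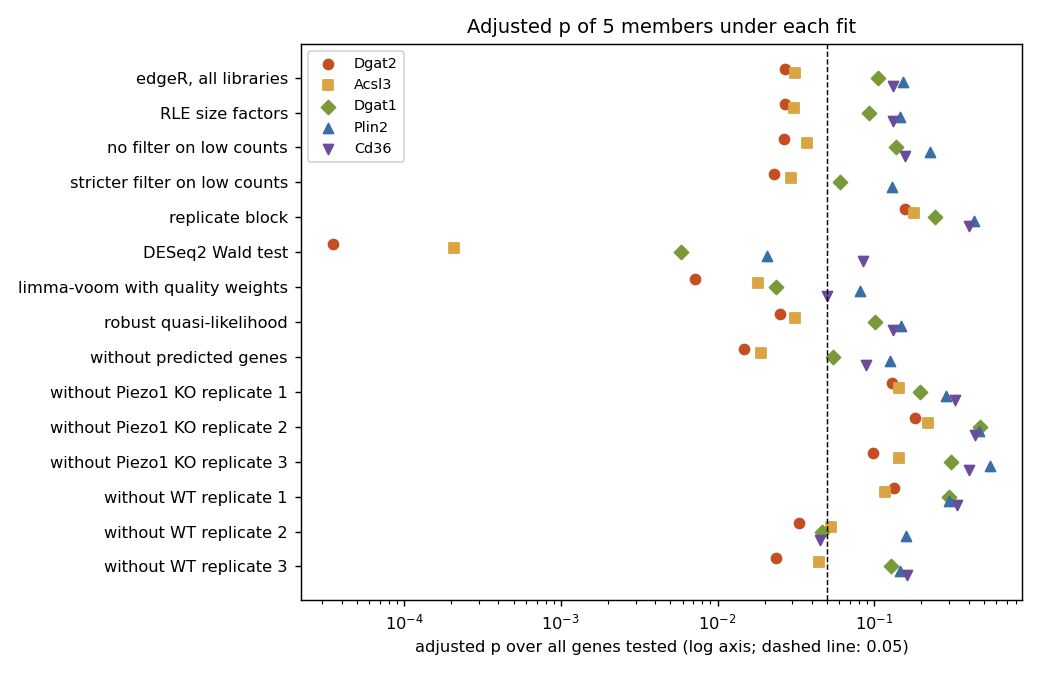
Adjusted p on a log x axis for Dgat2, Acsl3, Dgat1, Plin2 and Cd36 under edgeR with all libraries (top) and 14 alternative fits, with the threshold of 0.05 as a dashed line; Cd36 has no point under the stricter filter, which removed it. Dgat2 and Acsl3 lie left of the line in 9 and 8 of the alternatives and lie right of it when any Piezo1 KO library is left out.

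Further genes of the pathway came from 7 lists, covering peroxisomal oxidation, other mitochondrial oxidation, other uptake and binding, glycerolipid synthesis, other droplet proteins, regulators and PPAR targets. Of 108 such genes tested, 0 passed in edgeR, and their median log2 fold change was −0.03. At an unadjusted p under 0.05, 6 were higher and 13 lower, beside 6.30% and 6.91% of all genes tested. The groups did not overlap for 15 higher and 15 lower genes, 13.9% each way, beside 10.1% and 10.5% of all genes tested. The DESeq2 test called 3, namely Soat1, Hilpda and Prkag2, all higher, and limma-voom called Hilpda and Prkag2. Hilpda, which encodes a droplet protein that inhibits Pnpla2 and is induced by hypoxia, had 70.3, 95.8 and 82.4 CPM in Piezo1 KO and 46.4, 55.9 and 55.8 CPM in WT, without overlap (log2 fold change 0.65 ± 0.14, adjusted p = 0.0689, edgeR). Soat1, which esterifies cholesterol for storage, had 100.2, 112 and 105 CPM in Piezo1 KO and 85.2, 75.6 and 72.9 CPM in WT, also without overlap (0.44 ± 0.10, adjusted p = 0.0847, edgeR).

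In the lists of oxidation, the smallest p-values belonged to genes with negative changes. Slc22a5, the plasma membrane carnitine carrier, was at 14.6 ± 1.55 CPM in Piezo1 KO and 20.2 ± 1.19 CPM in WT, without overlap (SD, n = 3 each; log2 fold change −0.47 ± 0.13, adjusted p = 0.157, edgeR). Crot, the peroxisomal carnitine octanoyltransferase, was at 35.3 ± 1.35 CPM in Piezo1 KO and 41.2 ± 0.678 CPM in WT (SD, n = 3 each; −0.22 ± 0.09, adjusted p = 0.335, edgeR). Of 16 peroxisomal genes tested 9 were positive and 7 negative, and of 24 other mitochondrial genes 13 and 11.

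Of 26 regulators 9 were positive and 17 negative, with a median log2 fold change of −0.14, and 0 passed in edgeR. At an unadjusted p under 0.05, 1 was higher and 6 lower, beside 6.30% and 6.91% of all genes tested. The groups did not overlap for 3 higher and 6 lower regulators. These were 11.5% and 23.1% of the 26, beside 10.1% and 10.5% of all genes tested. The smallest p was that of Prkag2, an AMP-activated kinase subunit gene, at 0.55 ± 0.15 on the log2 scale (adjusted p = 0.138, edgeR), the 1 regulator higher at an unadjusted p under 0.05. The 6 that were lower at that level, each without overlap, were Rxra, Rxrb and Rxrg, which encode the retinoid X receptors that pair with PPARs, Nr1h2, which encodes liver X receptor β, and Tfeb and Tfe3, which encode transcription factors of lysosomal genes. Rxrb, the most abundant of the retinoid X receptor genes by CPM, had 36.7, 34.6 and 33.3 CPM in Piezo1 KO and 39.5, 45.4 and 45.5 CPM in WT. The log2 fold changes of Rxra, Rxrb and Rxrg were −0.53 ± 0.18, −0.32 ± 0.10 and −0.85 ± 0.29 (edgeR adjusted p = 0.240, 0.225 and 0.249). Those of Nr1h2, Tfeb and Tfe3 were −0.38 ± 0.11, −0.50 ± 0.19 and −0.28 ± 0.10 (edgeR adjusted p = 0.172, 0.306 and 0.276).

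Of 9 other genes of uptake and binding 3 were positive and 6 negative, and 0 passed. At an unadjusted p under 0.05, 1 was higher and 2 lower, beside 6.30% and 6.91% of all genes tested. The higher one was Dbi, which encodes the acyl-CoA binding protein, at 0.60 ± 0.20 on the log2 scale (edgeR adjusted p = 0.241). Its groups overlapped, with 241, 344 and 316 CPM in Piezo1 KO and 194, 151 and 252 CPM in WT. The lower ones were Lpl, the lipoprotein lipase gene, at −1.53 ± 0.56 with overlap, and Ffar2, a receptor of short-chain fatty acids, at −0.42 ± 0.15 without overlap (edgeR adjusted p = 0.284 and 0.256). Of 19 PPAR targets named, only 6 were in the deposited table, of which 2 were positive and 4 negative, and 0 passed. At an unadjusted p under 0.05, 1 was higher and 1 lower, beside the same 6.30% and 6.91%. The higher one, Abca1, a lipid exporter, had the smallest p, at 0.96 ± 0.34 on the log2 scale without overlap (edgeR adjusted p = 0.274). The lower one was Lpl, which is also in this list.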

How the data were processed

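RNA of 6 libraries of sorted mouse lung ILC2s was sequenced on a NextSeq 500, per the labels. Values are estimated counts per gene as deposited by the authors, with no scaling between libraries: in a library, 37.9% to 47.4% of values lay more than 1e-09 from a whole number. Reads were placed on mm10, per the submitters' processing notes. Aligner, counting tool and gene annotation: not given in the sources used here. Groups and replicate numbers were read from the titles.

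Estimated counts were rounded, passed through filterByExpr and TMM, and fitted in edgeR 4.0.16 under R 4.3.3 with glmQLFit. Group differences came from two-sided glmQLFTest, with no covariate, and p-values were corrected by Benjamini and Hochberg's method across 14149 genes. The SE is the absolute log2 fold change over the square root of F. Replicates differed by more than counting noise (chi-square per gene 9.97 to 55.4, against 1 for noise alone). Family shares were compared with exact permutation tests (SciPy 1.17.1). The fit was tested on simulated data. The members and lists were chosen with earlier results of these data known. The genes named are every member, Piezo1, from each related list the genes past the threshold or else that of smallest p, and from each cell type list the markers past the threshold. Utp14b, Dvl2, Acaa1b, Csf1r, Lyz2, Cd68, Lpl, Ffar2, Nr1h2, Tfeb, Tfe3 and the Rxr genes were added after their values were seen. So were the markers Il5, Il2ra, Gata3, Rora, Kit, Gzma, Prf1, Cd3d, Cd3e, Cd3g, Trac, Trbc1, Trbc2 and Col1a1. Gene positions and exon lengths are from GENCODE M21 on mm10.

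Alternatives were RLE size factors, no filter, a filter requiring 1 CPM throughout either group, a replicate block, DESeq2 1.42.0, limma-voom (limma 3.58.1) with quality weights, robust quasi-likelihood, removal of predicted genes, and removal of each library.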

Additional observations from a re-analysis of the deposited data

How the results depend on the processing

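The count of genes called over the whole table, 214, became 594 in DESeq2, 439 in limma-voom with quality weights, 328 without predicted genes and 52 with the replicate block, and 33 to 297 when 1 library was left out. The count of members called, 2, became 4 in DESeq2 and in limma-voom, 0 with the replicate block, and 0 to 3 when 1 library was left out. Members called lower, 0 in edgeR, were 1 in DESeq2 (Plin2), 1 in limma-voom (Cd36) and 0 to 1 without 1 library. Called genes of the related lists, 0 in edgeR, were 3 in DESeq2, 2 in limma-voom, 2 without predicted genes and 0 to 1 without 1 library. RLE size factors, no filter, a stricter filter and robust quasi-likelihood left the called members as they were. The median of the members ranged from −0.03 to 0.05 and the number positive from 17 to 22 without 1 library. The difference in the share of Acsl4 ranged from −1.95 to 2.17 percentage points without 1 library, with a change of sign at −0.373 without Piezo1 KO replicate 3 and −1.95 without WT replicate 3, and the other 4 shares kept their direction, with and without division by length. The cause of these shifts was not tested, and fits on 5 libraries hold fewer samples.

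Same-numbered libraries of the groups had deviations from their group means correlated at −0.183 to −0.00752. No library correlated best with its own number. With 3 libraries per group, such values cannot decide whether same-numbered libraries were prepared together. With the replicate block the edgeR adjusted p was 0.157 for Dgat2 and 0.179 for Acsl3. Among the members, SE was largest for Cd36 and Ppard, at 0.55 and 0.43 on the log2 scale, and these had the fewest counts.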
